A study of Mus musculus with 12 samples.

Results

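Ear skin of germ-free (GF) mice was compared with ear skin of specific-pathogen-free (SPF) mice after ethanol alone, across every gene measured by bulk RNA sequencing. The comparison holds 6 of the 12 samples of the series, chosen by their labels for housing and treatment: GF ethanol 1, 4 and 5, and SPF ethanol 1, 2 and 3. GF mice are raised without any living microbe, and SPF mice carry a microbiota that is free of listed pathogens. Ethanol is the vehicle of MC903 (calcipotriol, a vitamin D analogue that inflames mouse skin), which the other 6 samples received. Ethanol was put on the ear 5 times per the labels, whose wording does not settle how many times a day. The strain label is C57BL/6 in 5 of the 6 samples, and its number reads 8 in GF ethanol 5. Of the 6 MC903 samples, GF MC903 4 and 5 have 7 and 9 as that number. Sex, age, diet and the source of each colony are not given in the labels, so housing cannot be told apart from anything else that differed between the colonies. Nothing in the labels states that each library is its own mouse. The p-values below reflect only how far these libraries spread, which may be technical.

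Skin carries bacteria, fungi and mites on its surface and in its follicles, and keratinocytes and resident immune cells sense their products through pattern recognition receptors. Signals from the microbiota are known to shape skin T cells, antimicrobial peptides, interleukin-1 signalling and the tonic level of interferon-induced genes. Microbes also metabolise tryptophan, bile acids and drugs, products that reach the aryl hydrocarbon receptor and other sensors of the host. Germ-free housing removes the microbes of every body site at once.

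The 6 ethanol libraries held 40015323 to 43952521 estimated counts each. Defining genes of the labelled tissue were present in all 6: the epidermal keratin Krt10 at 11172 to 13970 CPM (counts scaled to library size, with TMM factors), the collagen gene Col1a1 at 1862 to 2919 CPM, the cartilage proteoglycan gene Acan at 203 to 254 CPM, and the skeletal muscle actin gene Acta1 at 365 to 652 CPM. The female transcript Xist was at 318 to 736 CPM, and the Y-linked genes Ddx3y, Uty, Kdm5d, Eif2s3y, Usp9y, Zfy1 and Zfy2 were at 0 in all 6. The first principal component of the 6 libraries held 44.4% of the variance and separated GF from SPF.

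Of 16466 genes tested, 3616 (22.0%) passed an adjusted p of 0.05 in edgeR's quasi-likelihood test, from which every adjusted p for a gene below comes. GF skin was higher for 1914 of them (11.6%) and lower for 1702 (10.3%). On library totals in place of TMM scaling 1420 were higher and 2218 lower, so 39% of the calls were higher in GF, against 52.9%. Most differences were small. The median absolute log2 fold change of the genes called was 0.41, and 300 (1.82%) differed by at least 2-fold, 136 (0.826%) higher and 164 (0.996%) lower. The 3 GF and 3 SPF values did not overlap for 7229 genes (43.9%), which include 3574 of the 3616. Lack of overlap in a called gene below thus adds little to its call. Without GF ethanol 4 the count fell to 1475, with 768 higher and 707 lower, and 162 differed by at least 2-fold. Without SPF ethanol 3 it was 2333 and without SPF ethanol 2 it was 2354. With MC903 in 6 other libraries, 6871 genes (41.7%) differed between GF and SPF skin, 3431 higher in GF (20.8%) and 3440 lower (20.9%). Of the 3616 genes, 3013 had the same sign there, 2060 of them called, and 174 were called with the opposite sign. The housing difference itself differed between the treatments for 2800 genes tested (17.0%, interaction term), 840 of them among the 3616.

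**Figure D1:**
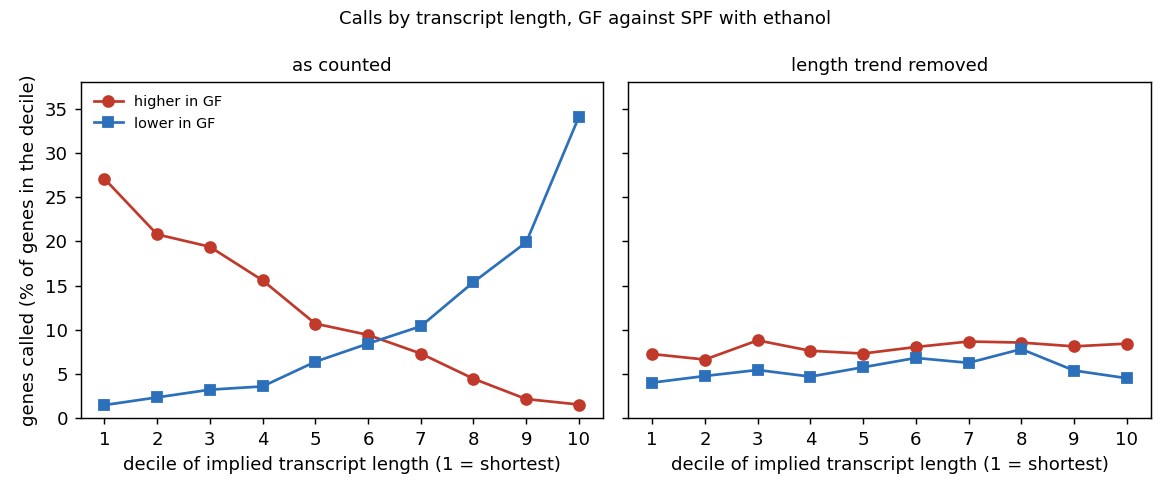
Genes called in GF against SPF ethanol-treated skin, as a percentage of the genes in each decile of transcript length, before (left) and after (right) a trend with length was removed from every library. In the shortest decile 27.1% were higher in GF and 1.49% lower, and in the longest 1.55% and 34.1%, while after removal the shares were 7.26% and 4.03% in the shortest and 8.44% and 4.53% in the longest.

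Calls ran with transcript length. Among the shortest decile of genes (0.0474 to 1.09 kb, as implied by counts and FPKM) 27.1% were higher in GF and 1.49% lower, and among the longest (6.14 to 104 kb) 1.55% were higher and 34.1% lower. Xist, the long RNA that silences an X chromosome, was lower in GF by this measure (log2 fold change -0.60, SE 0.14, adjusted p = 0.011), and with the trend removed it had -0.24 (adjusted p = 0.1). After removal 2183 genes passed (13.3%), 1284 higher (7.80%) and 899 lower (5.46%). The source of the trend was not tested. Counts with the trend removed, and without a library where they moved by more than 1.5 times, are therefore given beside the larger gene lists below.

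The largest differences fell on single genes of varied function. Among genes lower in GF, Erdr1, a gene at the end of the X chromosome (gene ID 170942, GRCm38 chromosome X, 170010526 to 170018797), read 123, 104 and 110 CPM in SPF ethanol 1, 2 and 3. It read 0.0201, 0 and 6.59 CPM in GF ethanol 1, 4 and 5 (log2 fold change -5.68, SE 1.34, adjusted p = 0.012, and 0.053 without GF ethanol 4). GF skin was thus far below SPF skin in every library, and GF ethanol 5 stood above the other GF libraries. Aoah, the enzyme that removes acyl chains from bacterial lipopolysaccharide, was at 1.73, 2 and 1.92 CPM in SPF and at 0.341, 0.296 and 0.168 CPM in GF libraries (-2.79, SE 0.37, adjusted p = 9.9e-04). Sptssb, a subunit of serine palmitoyltransferase that favours long sphingoid bases, fell from 9.76, 10 and 6.73 to 1.8, 1.44 and 1.76 CPM (-2.40, SE 0.25, adjusted p = 3.2e-04). Olah, a thioesterase of fatty acid synthesis, was at 3, 1.26 and 1.6 CPM in SPF and 0.301, 0.465 and 0.63 CPM in GF libraries (-2.07, SE 0.40, adjusted p = 0.0053). The P450 gene Cyp2a5 fell by 2.34 on the log2 scale, with 14.5, 4.27 and 5.15 CPM in SPF and 1.16, 1.92 and 1.66 CPM in GF libraries (adjusted p = 0.0098). Stra6, the receptor that takes up retinol from its plasma carrier, fell by 1.62 (adjusted p = 0.0095).

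Ugt1a6b, a glucuronosyltransferase that conjugates phenols (gene ID 394435, chromosome 1), read 71, 73.6 and 71.9 CPM in GF and 6.36, 11.8 and 10.9 CPM in SPF libraries (log2 fold change 2.90, SE 0.20, adjusted p = 3.2e-05). Ugt1a6a, its neighbour with the same final exons, read 13.6, 13.3 and 15.1 CPM in GF and 26.3, 30.2 and 27.7 CPM in SPF libraries (lower in GF, adjusted p = 0.0017). Because the authors' counting could split reads between them, both calls are uncertain. The sum of the pair was 84.6, 86.9 and 87 CPM in GF and 32.7, 42 and 38.6 CPM in SPF libraries, without overlap. Other members of the cluster are not in this sum, so a split of reads with them was not tested. Ugt1a1, the bilirubin-conjugating member of the same cluster (picked after its values were seen), had 77.5 to 83.6 CPM in GF and 71.3 to 81.8 CPM in SPF libraries (0.05, adjusted p = 0.8). Pyy, the gut hormone peptide YY, rose from 1.73, 1.26 and 0.701 CPM in SPF to 4.65, 6.53 and 4.89 CPM in GF libraries (2.12, SE 0.38, adjusted p = 0.0039). Retnla, an antibacterial protein of the resistin family, was at 2.95, 2.96 and 1.03 CPM in GF and 0.836, 0.371 and 0.148 CPM in SPF libraries (2.35, SE 0.55, adjusted p = 0.012, and 0.052 without GF ethanol 4). Msmp, a secreted protein, rose by 1.88 (adjusted p = 5.3e-04) and the keratin Krt77 of sweat ducts and suprabasal epidermis by 1.82 (adjusted p = 0.0089). Among the genes with the smallest p, the small heat shock protein gene Cryab read 73.8, 88 and 74.2 CPM in GF and 37.1, 33.8 and 40.4 CPM in SPF libraries (1.08, SE 0.08, adjusted p = 6.1e-05). The histone gene Hist1h2bc read 13.2 to 14.6 CPM in GF and 25.7 to 32.1 CPM in SPF libraries (-1.10, SE 0.09, adjusted p = 6.8e-05). The carboxylesterase gene Ces1e (2.27, adjusted p = 0.048), Itgb8, an integrin subunit that activates TGF-beta (-1.64, adjusted p = 0.048), and the centrosomal gene Cep85l (-1.57, adjusted p = 0.027) lost their calls without any 1 of at least 5 libraries, up to an adjusted p of 0.2. Lmbrd2, a membrane protein gene (-1.61, adjusted p = 0.0056), and Klhl11, a ubiquitin ligase adaptor (-1.57, adjusted p = 0.0021), passed without each library in turn.

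**Figure D2:**
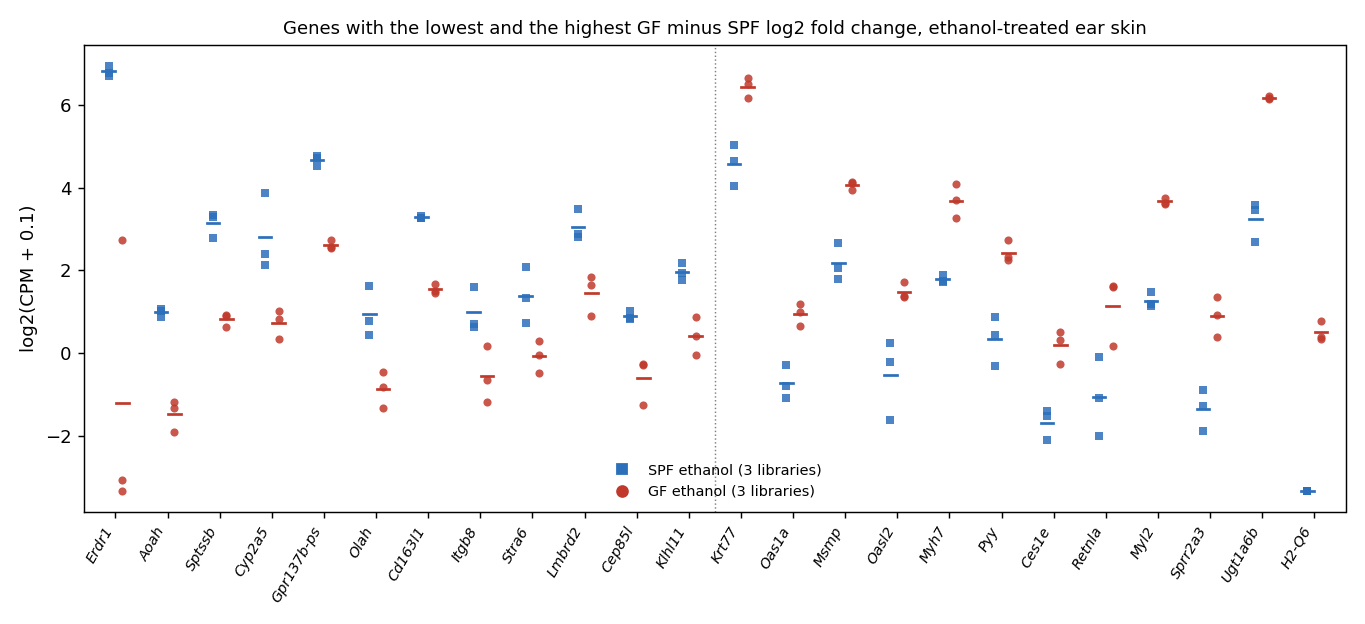
The 12 lowest and 12 highest log2 fold changes among called genes without overlap, as log2(CPM + 0.1) in each of 3 SPF (squares) and 3 GF (circles) ethanol libraries, with bars at the mean of these values. Erdr1 stands near 110 CPM in SPF and between 0 and 6.59 CPM in GF libraries, and H2-Q6 is at 0 in all 3 SPF libraries.

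Genes induced by interferon were higher in GF skin. Of 35 type I interferon-stimulated genes tested, 18 rose and none fell, with a median log2 fold change of 0.59 against 0 over all genes tested (16 rose with the length trend removed, and 12 to 15 without 1 library). Isg15, a ubiquitin-like modifier, was at 1.38, 1.44 and 1.78 CPM in GF and 0.608, 0.722 and 0.148 CPM in SPF libraries (1.65, SE 0.36, adjusted p = 0.0091). Ifit1, which binds viral RNA caps, was at 2.21, 1.92 and 1.89 CPM in GF and 1.08, 0.516 and 0.775 CPM in SPF libraries (1.34, SE 0.25, adjusted p = 0.0047). The 2 groups did not overlap for either gene, as for nearly all genes called. Oas1a, which makes the oligoadenylates that activate RNase L, was at 1.9, 1.48 and 2.18 CPM in GF and 0.475, 0.371 and 0.719 CPM in SPF libraries (1.82, SE 0.25, adjusted p = 0.0011). Oasl2, a relative of it, rose by 1.96 (adjusted p = 0.0061), the virus tether Bst2 by 0.86 (adjusted p = 0.0034) and the chaperone Rtp4 by 1.05 (adjusted p = 0.015, and 0.058 at most without SPF ethanol 1 or 3). Zbp1, a sensor of Z-form nucleic acid, rose by 1.24 (adjusted p = 0.035), a call lost without any 1 of 4 libraries (up to 0.1). Ifit2 had 6.25 to 7.78 CPM in GF and 5.85 to 7.4 CPM in SPF libraries (0.15, adjusted p = 0.52), and the transducer Stat2 had 21.5 to 25.6 and 23 to 27.4 CPM (-0.12, picked after its values were seen). With MC903, 31 of the 35 were higher in GF and none was lower, with a median of 1.17. The shares over all genes tested with MC903 were 20.8% higher and 20.9% lower.

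Of 20 guanylate-binding proteins, immunity-related GTPases and other targets of interferon gamma, 8 rose and none fell, with a median of 0.47 (8 with the length trend removed, 4 without GF ethanol 1 and 5 without SPF ethanol 2). The GTPase gene Gbp2 was at 8.36, 8.77 and 8.19 CPM in GF and 4.58, 3.71 and 5.16 CPM in SPF libraries (0.91, SE 0.15, adjusted p = 0.003). Ifi47 rose by 1.28 (adjusted p = 0.0019) and Gbp5 by 1.10 (adjusted p = 0.011). Iigp1 (0.89, adjusted p = 0.027) and Gbp3 (0.64, adjusted p = 0.034) rose too, but did not pass without any 1 of at least 5 libraries (up to 0.12). With MC903, 12 of the 20 were higher in GF and none was lower, against 20.8% and 20.9% over all genes tested.

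Many interferon-induced promoters hold an interferon-stimulated response element, the site bound by STAT and IRF proteins. Its core was searched as GAAANNGAAA on both strands in the 250 bases before each start site, in RefSeq promoters of GRCm38.p6, where overlapping matches count as 1 promoter. The core stood in 936 of 27025 genes with a promoter (3.46%) and in 12 of the 24 interferon-stimulated genes that had one (50%), 8 of 12 that rose and 4 of 12 that did not. It stood in 10 of 13 in the list with Gbp2 (76.9%). In the antigen presentation lists below it stood in 3 of 16 class I genes (18.8%) and 1 of 10 class II genes (10%). Over all genes with a promoter it stood in 3.27% of those higher in GF and in 2.09% of those lower. The windows of 3 genes of the first list that rose, of Gbp2 and of B2m are shown with that of Stat2, which did not pass, on the strand of the gene with the core in capitals. They lie at chr4:156200842-156200921 (minus strand) for Isg15, chr19:34640760-34640839 (plus) for Ifit1, chr5:120907526-120907605 (minus) for Oas1a, chr3:142620579-142620658 (plus) for Gbp2, chr2:122147523-122147602 (plus) for B2m and chr10:128270251-128270330 (plus) for Stat2.
Isg15: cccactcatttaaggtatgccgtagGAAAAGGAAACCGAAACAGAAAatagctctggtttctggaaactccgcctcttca
Ifit1: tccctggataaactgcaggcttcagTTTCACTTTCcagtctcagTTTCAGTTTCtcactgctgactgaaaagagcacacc
Oas1a: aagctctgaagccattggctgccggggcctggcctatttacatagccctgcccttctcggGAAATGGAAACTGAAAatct
Gbp2: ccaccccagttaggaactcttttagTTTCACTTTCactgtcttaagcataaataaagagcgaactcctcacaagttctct
B2m: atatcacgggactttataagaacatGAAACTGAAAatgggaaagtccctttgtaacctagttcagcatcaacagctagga
Stat2: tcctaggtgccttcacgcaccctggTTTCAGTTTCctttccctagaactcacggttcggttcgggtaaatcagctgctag
Isg15 holds 3 overlapping matches, Ifit1 and Oas1a hold 2 each and the others 1, so that the core was present both in genes that rose and in one that did not. A match is a description of these letters only.

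Antigen presentation rose in both classes. Of 18 genes of class I processing and the immunoproteasome, 15 rose and none fell, with a median log2 fold change of 0.55 (11 with the length trend removed). The classical heavy chain gene H2-K1 was at 397, 407 and 394 CPM in GF and 254, 257 and 235 CPM in SPF libraries (0.68, SE 0.08, adjusted p = 5.6e-04), and H2-D1 rose by 0.53 (adjusted p = 0.0028). The immunoproteasome subunits, which cut peptides for display, rose together: Psmb8 by 0.87 (adjusted p = 0.0011), Psmb9 by 1.01 (adjusted p = 0.0025) and Psmb10 by 0.73 (adjusted p = 5.3e-04). The light chain gene B2m and the peptide transporter genes Tap1 and Tap2, picked after their values were seen, had log2 fold changes of 0.55, 0.55 and 0.70, and B2m did not pass with the length trend removed (adjusted p = 0.069). H2-Q6, a nonclassical class I gene, was at 1.6, 1.16 and 1.22 CPM in GF libraries and at 0 in the 3 SPF libraries, at least 55.9-fold higher when the SPF group is set to 3 counts in all. H2-Q4 rose by 0.81 (adjusted p = 0.0013) and H2-Q7 by 1.33 (adjusted p = 0.012, and 0.05 without SPF ethanol 3). Genes of the H2-Q series are near-identical copies, so reads may have been split between them. Nlrc5, the transactivator of class I genes (picked after its values were seen), had 16.5 to 19.1 CPM in GF and 16.5 to 18 CPM in SPF libraries (0.06, adjusted p = 0.79).

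Of 13 class II genes 8 rose and none fell, with a median of 0.50 (6 with the length trend removed). The invariant chain gene Cd74 was at 816, 850 and 635 CPM in GF and 484, 503 and 407 CPM in SPF libraries (log2 fold change 0.72, SE 0.11, adjusted p = 0.0021). H2-Ab1 was at 407, 405 and 355 CPM in GF and 267, 258 and 210 CPM in SPF libraries (0.67, SE 0.09, adjusted p = 0.0012). H2-Eb1 rose by 0.71 (adjusted p = 0.0011), H2-Aa by 0.50 (adjusted p = 0.0053) and the peptide exchange factor H2-DMa by 0.64 (adjusted p = 0.004). For these 5 genes every GF value lay above every SPF value. Nearly all genes called lacked overlap (3574 of 3616), so this adds little to the calls. With MC903, 16 of 18 class I and 9 of 13 class II genes were higher in GF and none was lower. The shares over all genes tested with MC903 were 20.8% and 20.9%. In the 4 lists on interferon and antigen presentation no member was lower at an unadjusted p under 0.05 or by DESeq2, and limma voom called 1 lower, in the list with Gbp2.

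**Figure D3:**
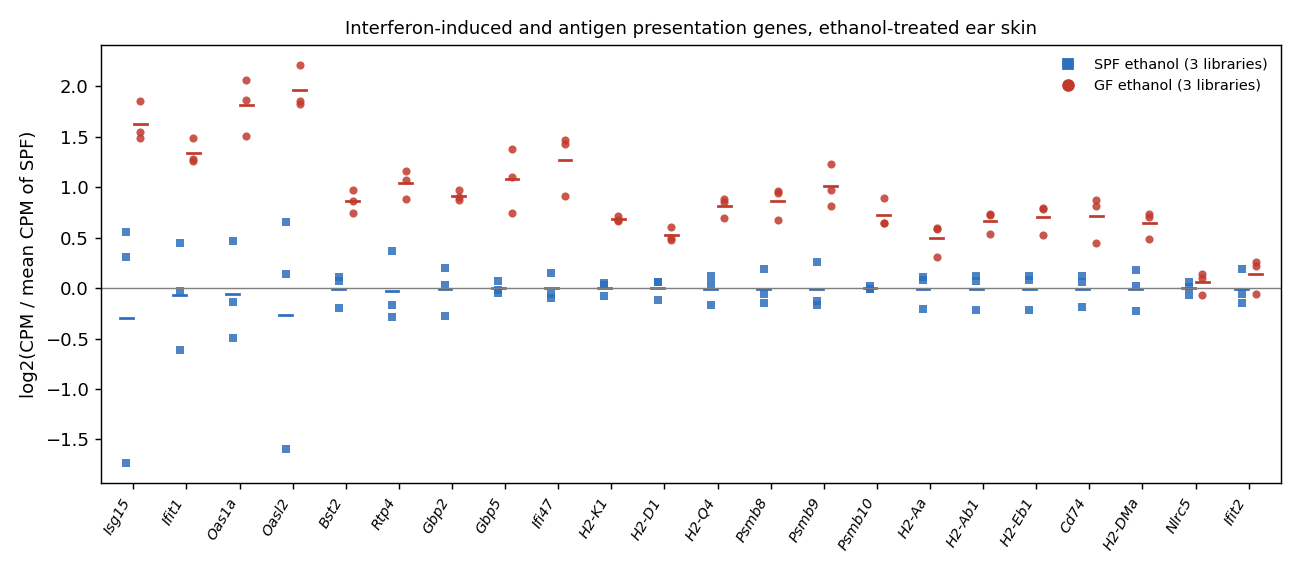
Interferon-induced and antigen presentation genes in ethanol-treated skin, as log2 of each library's CPM over the mean CPM of the 3 SPF libraries, with squares for SPF, circles for GF and bars at the mean of the points. GF libraries lie above SPF libraries for every gene shown other than Nlrc5 and Ifit2, whose log2 fold changes were 0.06 and 0.15. The other genes shown were all called, and nearly all called genes lack overlap.

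Markers of antigen-presenting cells were partly higher. In whole tissue, fewer cells of a type and less RNA per cell cannot be told apart, here and below. Of 21 genes of Langerhans and dendritic cells 8 rose and none fell, with a median log2 fold change of 0.59 (6 with the length trend removed, 4 without GF ethanol 4 and 5 without SPF ethanol 3). The lectin Cd207 (langerin), which marks Langerhans cells, was at 19.8, 21.5 and 15.7 CPM in GF and 12.1, 15.1 and 10.7 CPM in SPF libraries (0.59, SE 0.15, adjusted p = 0.017). Mgl2, a lectin of dermal dendritic cells, rose by 0.63 (adjusted p = 0.0082), Cd209a by 0.75 (adjusted p = 0.011) and the transcription factor Batf3 by 1.14 (adjusted p = 0.021). Epcam, which Langerhans cells share with keratinocytes, had 88.8 to 103 CPM in GF and 75.3 to 99.9 CPM in SPF libraries (0.10, adjusted p = 0.48). The calls of Cd207 and Batf3 were lost without any 1 of 3 libraries and that of Cd209a without GF ethanol 4 (up to 0.086). Their summed level was 487 to 535 CPM in GF and 448 to 454 CPM in SPF libraries, and none of the 21 was at 0. The part of these cells in the class II result was not tested.

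Of 23 macrophage genes 4 were higher and 2 lower (median 0.18), against shares of 11.6% and 10.3% over all genes tested. After length correction the counts became 2 and 1, and 1 to 6 were higher when 1 library was left out. With so few calls nothing is drawn from this list, and its members are given as single genes. The scavenger receptor Cd163 of resident macrophages fell by 0.58 (adjusted p = 0.0097), with 27.9 to 36.2 CPM in GF and 41.9 to 52.6 CPM in SPF libraries. C1qb, a chain of complement C1q, rose by 0.52 (adjusted p = 0.01, and 0.084 with the length trend removed). The pan-macrophage genes Cd68 (0.10) and Adgre1 (0.29) did not pass. Of 36 chemokine and receptor genes 9 rose and 1 fell (5 and 1 with the length trend removed, and 5 and 0 without GF ethanol 4). The CCR4 ligand Ccl22 was at 12.9, 13.7 and 7.62 CPM in GF and 7.27, 4.85 and 3.36 CPM in SPF libraries (1.14, SE 0.26, adjusted p = 0.011, and 0.054 without GF ethanol 4), and its sister Ccl17 rose by 1.24 (adjusted p = 0.036, lost without any 1 of 4 libraries, up to 0.11). Of 24 complement genes 12 rose and none fell, with a median of 0.33 (7 with the length trend removed, 6 without GF ethanol 4 and 7 without SPF ethanol 3). C3, the central component, was at 225, 188 and 187 CPM in GF and 118, 110 and 120 CPM in SPF libraries (0.79, SE 0.10, adjusted p = 8.6e-04), and the protease C1s1 rose by 0.75 (adjusted p = 0.0021). Of 21 NF-kB subunits and regulators 8 rose and 1 fell. With the length trend removed 6 rose, without GF ethanol 4, GF ethanol 5 or SPF ethanol 3 it was 4, and without SPF ethanol 2 it was 5. Among them were the noncanonical subunits Nfkb2 (0.73, adjusted p = 4.2e-04) and Relb (0.72, adjusted p = 0.0021), while Nfkb1 had -0.07 (adjusted p = 0.6).

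T cell genes gave few calls. Of 23 members 1 rose, Thy1 (log2 fold change 0.51, adjusted p = 0.0029), which nerve and stromal cells also carry. The median of the list was 0.09. Its summed level was 191 to 207 CPM in GF and 154 to 168 CPM in SPF libraries, without overlap. Such a sum is weighted to its most abundant members, and the part of Thy1 in it was not separated. With MC903, 10 members were higher in GF and none was lower, with a median of 0.72. The shares over all genes tested with MC903 were 20.8% higher and 20.9% lower. Cd3e, a chain of the T cell receptor complex, had 6.88 to 7.47 CPM in GF and 4.7 to 7.79 CPM in SPF libraries (0.20, adjusted p = 0.43), and Cd3d had -0.03 (adjusted p = 0.93). Among 16 genes of gamma delta T, innate-like T, NK and innate lymphoid cells 3 fell and none rose (1 fell with the length trend removed and 1 to 2 without 1 library). The summed level of this list went the other way, at 100 to 115 CPM in GF and 132 to 168 CPM in SPF libraries. Cd163l1, a scavenger receptor of gamma delta T cells that make IL-17, was at 2.73, 2.62 and 3.11 CPM in GF and 9.91, 9.59 and 9.46 CPM in SPF libraries (-1.78, SE 0.14, adjusted p = 6.1e-05). The means were 2.82 ± 0.256 and 9.65 ± 0.234 CPM (SD, n = 3), and Cd163l1 was lower in GF with MC903 too (-1.39, adjusted p = 1.9e-05). Sox13, a transcription factor of the same gamma delta lineage, had 15 to 15.8 CPM in GF and 15.1 to 16.2 CPM in SPF libraries (-0.02, adjusted p = 0.92). Of 13 genes of the IL-17 and IL-22 axis 1 rose, 2 fell and 10 did not pass, against shares of 11.6% and 10.3% over all genes tested. Il22ra2, the soluble decoy receptor of IL-22, fell by 1.24 (adjusted p = 0.008), with 5.66 to 7.73 CPM in GF and 12.6 to 24 CPM in SPF libraries, and the receptor subunit gene Il17rc rose by 0.54 (adjusted p = 0.0065).

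Type 2 cytokine, alarmin and receptor genes gave no call among 11 by edgeR, DESeq2 or limma voom, and 1 was lower at an unadjusted p under 0.05. The alarmin Tslp was at 1.8, 3.72 and 2.02 CPM in GF and 2.68, 2.29 and 2.42 CPM in SPF libraries (log2 fold change 0.03, adjusted p = 0.95). Of 9 eosinophil genes only 2 had enough counts to be tested, so the list says little of these cells. Both rose, Ear2 by 0.86 (adjusted p = 0.045) and Alox15 by 1.80 (adjusted p = 0.014), at levels of 0.504 to 2.01 CPM in GF libraries and with calls lost without any 1 of 4 and 2 libraries, up to 0.16. Ear2 also lost its call in 6 other settings, among them limma voom, library totals and the 6 ethanol libraries alone. Of 15 mast cell and basophil genes 1 rose, the connective tissue mast cell protease Mcpt4 (0.57, adjusted p = 0.003), while Kit, the receptor of mast cells and melanocytes, had -0.13 (adjusted p = 0.45).

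Of 35 microbial sensors and adaptors 4 rose and 2 fell (3 and 1 after length correction). Their median was 0.12. The rises are near the share of rises over all genes (11.6%) and the falls below theirs (10.3%), so the counts alone say nothing particular of sensors. Tlr2, the receptor for bacterial lipoproteins, was at 7.04, 7.86 and 7.73 CPM in GF and 5.76, 4.87 and 5.15 CPM in SPF libraries (log2 fold change 0.52, SE 0.10, adjusted p = 0.006). Card9, the adaptor of fungal sensors, rose by 0.59 (adjusted p = 0.0041) and the inflammasome protease gene Casp1 by 0.69 (adjusted p = 0.0054). Pglyrp2, an amidase that cuts bacterial peptidoglycan, was at 0.962, 0.528 and 1.22 CPM in GF and 2.15, 1.9 and 1.66 CPM in SPF libraries (-1.07, SE 0.28, adjusted p = 0.018, and up to 0.066 without GF ethanol 4 or SPF ethanol 1).

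Of 23 antimicrobial genes 2 rose, Retnla and Sprr2a1, and 3 fell (2 and 4 with the length trend removed). Over all genes tested the shares were 11.6% and 10.3%, so these counts alone say nothing particular of the list. Lyz1, a lysozyme, fell by 0.70 on the log2 scale (adjusted p = 0.0043), with 13.7 to 15.4 CPM in GF and 19.5 to 26.4 CPM in SPF libraries. The chitinase-like Chil1 fell by 0.43 (adjusted p = 0.0084). The defensin gene Defb1 fell by 0.30 (adjusted p = 0.026), with 18.5 to 20.8 CPM in GF and 22.4 to 26 CPM in SPF libraries, a call lost without any 1 of 4 libraries (up to 0.1). Of 16 genes of the IL-1 and IL-36 axis 1 rose and 2 fell, and with the length trend removed none rose and 4 fell. Il1f8, which encodes IL-36 beta, was at 10.3, 11.3 and 13.2 CPM in GF and 22.6, 19.1 and 23.4 CPM in SPF libraries (-0.91, SE 0.16, adjusted p = 0.0034). Il1a had 9.46 to 11 CPM in GF and 8.51 to 11.6 CPM in SPF libraries (0.00, adjusted p = 1).

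**Figure D4:**
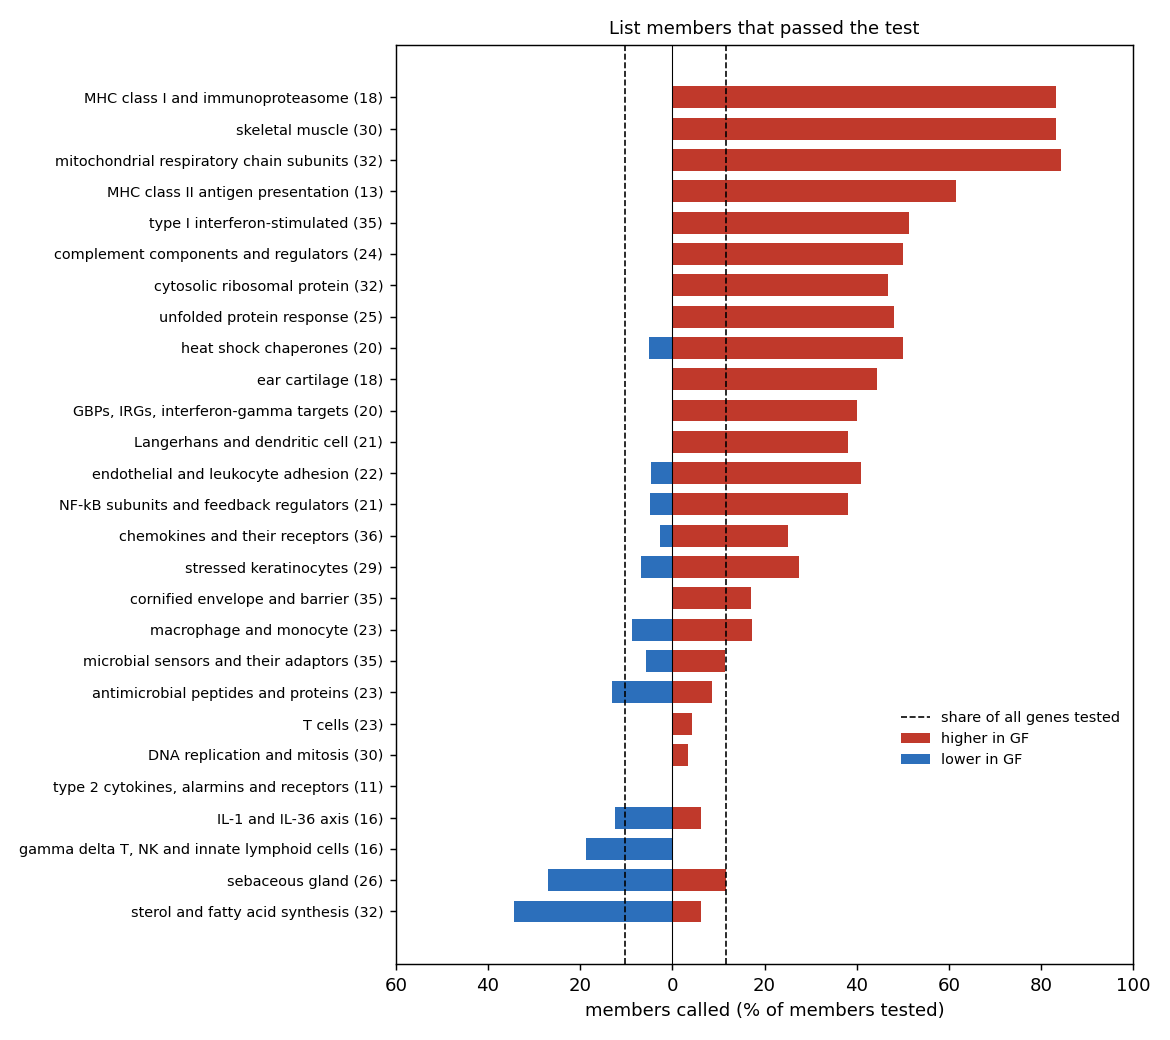
Members of 27 gene lists called higher (red, right) or lower (blue, left) in GF than in SPF ethanol-treated skin, as a percentage of the members tested, with their number in brackets and dashed lines at the shares over all genes tested (11.6% and 10.3%). Class I presentation, muscle and respiratory chain lists reach furthest to the right, and sterol and sebaceous lists furthest to the left.

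In the epidermis, genes of stressed keratinocytes were higher in part. Of 29 members 8 rose and 2 fell, with a median log2 fold change of 0.47 (5 rose and 3 fell with the length trend removed). The rises numbered 14 without GF ethanol 1, and 5 without GF ethanol 4 or SPF ethanol 2. Sprr2a1, a cornified envelope precursor of stressed epidermis, was at 8.22, 14.1 and 9.17 CPM in GF and 1.84, 3.57 and 4.13 CPM in SPF libraries (1.72, SE 0.26, adjusted p = 0.0017), and Sprr2a3 rose by 2.55 (adjusted p = 4.0e-04). These are near-identical copies, so their split is uncertain. Krt16, a keratin of wounded epidermis, was at 11.5, 33.1 and 56.8 CPM in GF and 9.38, 11.3 and 8.15 CPM in SPF libraries (1.81, SE 0.40, adjusted p = 0.0092). The GF libraries were far apart, and GF ethanol 1 lay just above the SPF values. Its partners Krt6a (0.47, adjusted p = 0.056) and Krt6b (1.09, adjusted p = 0.059) did not pass. With MC903 the direction of the list was the opposite, with 2 members higher in GF and 16 lower (median -0.62). The shares over all genes tested with MC903 were 20.8% higher and 20.9% lower. Among the 35 barrier and cornified envelope genes tested, 6 rose and none fell (4 with the length trend removed, 3 without GF ethanol 4). Over all genes tested with ethanol 11.6% were higher and 10.3% lower, and 7.80% were higher with the trend removed. The rises are thus not far above the shares over all genes. Lor, the main envelope protein, had 3031 to 4071 CPM in GF and 2293 to 3010 CPM in SPF libraries (0.36, adjusted p = 0.12), and Flg2 had 0.07 (adjusted p = 0.78). Of 30 genes of DNA replication and mitosis 1 rose, the thymidine kinase gene Tk1 (0.57, adjusted p = 0.0089), and the proliferation marker Mki67 had -0.26 (adjusted p = 0.19). The calls in this list were below the shares over all genes tested. By DESeq2 2 of the 30 were higher and by limma voom 1, with 5 higher and 2 lower at an unadjusted p under 0.05.

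Sterol and fatty acid synthesis held more members lower in GF than higher, and most did not pass. Of 32 genes 11 fell, 2 rose and 19 did not pass, with -0.11 as median (7 and 1 after length correction), and their summed level was 11758 to 12407 CPM in GF and 13848 to 14601 CPM in SPF libraries. Most of the gap between these sums lies in Scd1, a member of this list that is described below. Lss, which closes the sterol ring to make lanosterol, was at 119, 106 and 118 CPM in GF and 152, 160 and 167 CPM in SPF libraries (log2 fold change -0.49, SE 0.06, adjusted p = 7.4e-04). The HMG-CoA synthase gene Hmgcs1 fell by 0.37 (adjusted p = 0.0028) and Hsd17b7, a reductase of the later pathway, by 0.54 (adjusted p = 0.003). GF and SPF values of Lss did not overlap, as for nearly all genes called. Of 26 sebaceous gland genes 7 fell, 3 rose and 16 did not pass (9 fell and none rose with the length trend removed, and 2 fell and 1 rose without GF ethanol 4). Scd1, the desaturase that is abundant in sebocytes, was at 4996, 4345 and 4801 CPM in GF and 6351, 6456 and 6380 CPM in SPF libraries (-0.44, SE 0.10, adjusted p = 0.012, 0.054 without GF ethanol 4 and 0.05 with the length trend removed). The acyltransferase gene Dgat2l6 fell by 0.69 (adjusted p = 0.0081), while the wax synthase gene Awat2 rose by 0.71 (adjusted p = 0.035, lost without any 1 of 4 libraries, up to 0.17). With MC903 the sebaceous list had 14 members higher and 5 lower in GF, and the sterol list had 2 higher and 20 lower. The shares over all genes tested with MC903 were 20.8% higher and 20.9% lower. Of 28 genes of epidermal ceramides 3 rose and 4 fell (4 and 1 with the length trend removed), among them the elongase genes Elovl1 (0.57, adjusted p = 0.0015) and Elovl7 (-0.36, adjusted p = 0.0028, and 0.068 with the length trend removed). The ceramide counts are near the shares over all genes tested (11.6% higher and 10.3% lower).

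Skeletal muscle genes moved together. Of 30 members 25 rose and none fell, with a median log2 fold change of 0.72 (25 with the length trend removed, 24 to 26 without 1 library). Their summed level was 4155, 4330 and 4438 CPM in GF and 2983, 2882 and 3393 CPM in SPF libraries. None of the 30 was at 0 in the 6 libraries. Components of slow fibres led the list. Myl2, the slow regulatory light chain, was at 13.4, 12.3 and 12.1 CPM in GF and 2.09, 2.19 and 2.69 CPM in SPF libraries (2.44, SE 0.16, adjusted p = 3.2e-05). Tnnt1, the slow troponin T, was at 50.9, 52 and 51.3 CPM in GF and 16.4, 18 and 17.7 CPM in SPF libraries (1.57, SE 0.13, adjusted p = 8.1e-05). Both groups were tight, and no value of one lay within the other, as for nearly all genes called. The slow heavy chain gene Myh7 rose by 1.97 (adjusted p = 3.5e-04) and the slow essential light chain gene Myl3 by 1.46 (adjusted p = 0.0039).

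Genes of fast fibres were among the rises too. Pvalb, the calcium buffer of fast fibres, rose by 1.15 on the log2 scale (adjusted p = 2.8e-04), Actn3 by 1.19 (adjusted p = 0.0013) and the alpha-actin gene Acta1 of all fibres by 0.66 (adjusted p = 2.3e-04). To set fast against slow forms, further genes were picked after their values were seen, so they cannot test a difference between these forms. The slow troponin C gene Tnnc1 had a log2 fold change of 1.09 and the fast form Tnnc2 had 0.71. The slow troponin I gene Tnni1 was higher in GF (adjusted p = 4.5e-04), and the fast form Tnni2 had 0.49. The fast heavy chain gene Myh1 was at 574, 656 and 693 CPM in GF and 672, 663 and 792 CPM in SPF libraries (-0.14, adjusted p = 0.32). The perinatal heavy chain gene Myh8 was lower in GF, at 2.47 to 3.61 against 5.35 to 6.65 CPM (-1.04, adjusted p = 0.03, lost without any 1 of 5 libraries, up to 0.1). With MC903, 24 of the 30 were higher in GF and 1 was lower, against 20.8% and 20.9% over all genes tested, with a median of 0.71. Tnni1 had -0.39 there.

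Cartilage genes rose in part, 8 of 18 with none lower and a median of 0.43 (8 with the length trend removed). Cytl1, a cytokine-like protein of cartilage, was at 1285, 1440 and 1132 CPM in GF and 592, 678 and 581 CPM in SPF libraries (log2 fold change 1.06, SE 0.12, adjusted p = 4.6e-04). Summed over the list, GF libraries held 2291 to 2750 CPM and SPF libraries 1502 to 1706 CPM, with 1 of 19 members at 0 in all. Cytl1 makes up a large part of these sums and of the gap between them. The matrix genes Comp (1.19, adjusted p = 1.7e-04), Chad (0.79, adjusted p = 0.0017) and Col2a1 (0.94, adjusted p = 0.0041) rose, while Acan did not pass (0.06, adjusted p = 0.64). At an unadjusted p under 0.05, and by DESeq2, 1 cartilage gene was lower. Of 30 collagen, fibroblast and matrix genes 4 rose and 3 fell (4 and 1 with the length trend removed). These counts are near the shares over all genes tested (11.6% higher and 10.3% lower). Lox, which crosslinks collagen, fell by 0.71 (adjusted p = 0.0033), Col3a1 by 0.46 (adjusted p = 0.022, lost without GF ethanol 5 or SPF ethanol 2, up to 0.078), and the matricellular gene Cyr61 rose by 1.09 (adjusted p = 0.0011). How much muscle and cartilage each piece of ear held was not measured apart from these genes, and their part in other results was not tested.

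**Figure D5:**
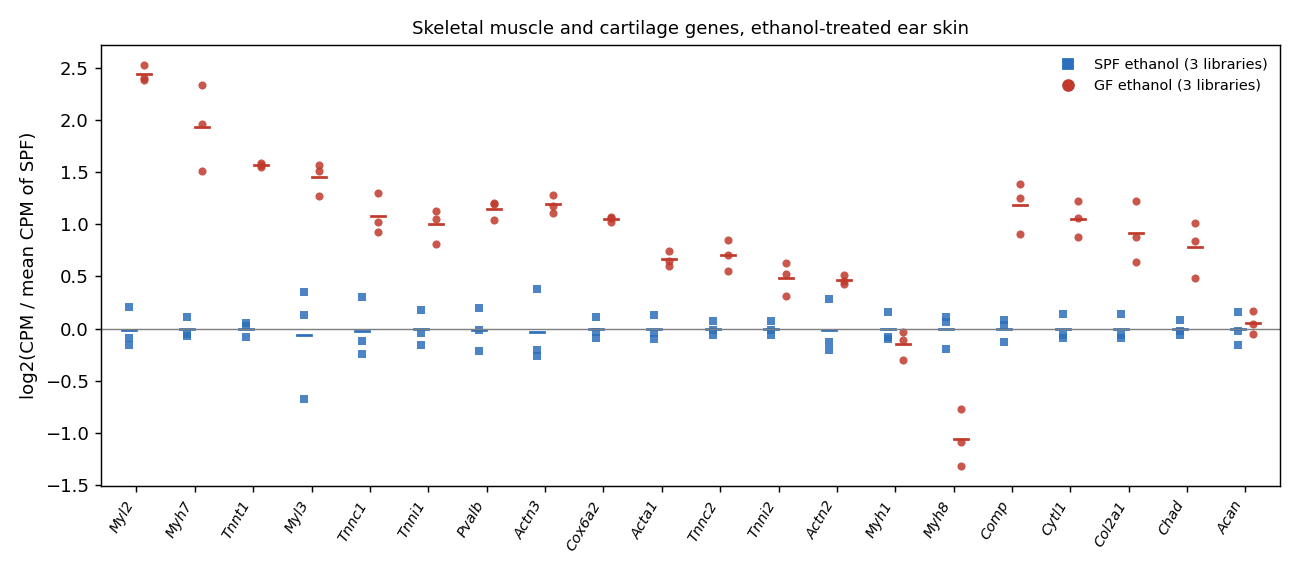
Skeletal muscle and cartilage genes in ethanol-treated skin, as log2 of each library's CPM over the mean CPM of the 3 SPF libraries, with squares for SPF, circles for GF and bars at the mean of the points. Myl2, Myh7, Tnnt1 and Myl3 lie furthest above 0 in GF libraries, with log2 fold changes of 1.46 to 2.44, while Myh1 and Acan overlap between groups and Myh8 lies below.

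Energy metabolism and protein quality control were higher as counted. Over all genes tested 11.6% were higher in GF, and 7.80% with the length trend removed. Of 32 subunits of the mitochondrial respiratory chain 27 rose and none fell, with a median log2 fold change of 0.32, but 9 rose with the length trend removed, and 15 without GF ethanol 4. Cox6a2, the muscle form of a cytochrome oxidase subunit, rose by 1.05 (adjusted p = 4.0e-04), and Uqcrc1 of complex III by 0.40 (adjusted p = 0.0082). Of 32 cytosolic ribosomal proteins 15 rose and 2 did so with the trend removed, and without 1 library 2 (GF ethanol 4), 3 (SPF ethanol 3), 4 (SPF ethanol 1) or 7 (GF ethanol 5) rose. With the trend removed the ribosomal rises were near the share over all genes. The respiratory chain and ribosomal lists had median lengths of 1.06 and 0.804 kb, within the shortest decile, where 27.1% of genes were higher. Of 28 glycolysis and hypoxia genes 14 rose and 2 fell (9 and 2 with the trend removed). Aldoa rose by 0.49 (adjusted p = 0.001) and the muscle isoenzymes Eno3 and Pgam2 by 0.72 and 0.77, beside the summed muscle level given above, and Hk1 fell by 0.45 (adjusted p = 0.0044). Of 25 genes of the unfolded protein response 12 rose and none fell (11 with the trend removed, and 1 lower at an unadjusted p under 0.05). Pdia6, a protein disulfide isomerase, was at 172, 189 and 163 CPM in GF and 121, 118 and 123 CPM in SPF libraries (0.54, SE 0.08, adjusted p = 0.0015). The endoplasmic chaperone Hsp90b1 rose by 0.45 (adjusted p = 0.0035), Pdia4 by 0.48 (adjusted p = 0.0029) and the transcription factor gene Atf5 by 0.43 (adjusted p = 0.0051). With MC903 this list went the other way, with 1 higher in GF and 12 lower, against 20.8% and 20.9% over all genes tested. Of 20 heat shock genes 10 rose (8 with the trend removed, 3 without GF ethanol 4 and 6 without SPF ethanol 1) and 1 fell, Hspa4l, by 0.64 (adjusted p = 5.6e-04), against rises of 0.51 for Hspb8 (adjusted p = 0.0026) and 0.53 for the collagen chaperone Serpinh1 (adjusted p = 0.0047).

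Genes that handle foreign compounds changed in both directions. Of 31 cytochrome P450, sulfotransferase and glutathione transferase genes 10 rose and 4 fell (5 and 3 with the length trend removed). Without GF ethanol 4 it was 5 and 2, and without GF ethanol 1 or SPF ethanol 1 it was 6 and 2. Ces1d, a carboxylesterase, was at 73.8, 82.5 and 63.6 CPM in GF and 28.1, 30.9 and 34.4 CPM in SPF libraries (log2 fold change 1.24, SE 0.17, adjusted p = 0.0013). The glutathione transferase gene Gstt1 rose by 0.70 (adjusted p = 0.0019), while the aldehyde oxidase gene Aox3 fell by 1.20 (adjusted p = 0.0085). Of 16 genes of the aryl hydrocarbon receptor, the sensor of tryptophan metabolites and dioxins, 4 fell and 1 rose (2 and 1 with the length trend removed, and 2 fell without GF ethanol 4 or SPF ethanol 3). The falls include Ugt1a6a, an uncertain call because its reads could have been split with Ugt1a6b. The sum of that pair was higher in GF, with means of 86.2 CPM in GF and 37.8 CPM in SPF libraries. Tiparp, a target that feeds back on the receptor, was at 21.5, 18.9 and 22.4 CPM in GF and 34.8, 27.6 and 28.7 CPM in SPF libraries (-0.54, SE 0.10, adjusted p = 0.0053). The receptor gene Ahr itself fell by 0.45 (adjusted p = 0.028, lost without any 1 of 4 libraries and with the length trend removed, up to 0.12), and the repressor gene Ahrr had 0.42 (adjusted p = 0.15). Of 22 targets of NRF2, the antioxidant regulator, 8 rose and 2 fell (4 and 2 with the trend removed). The rises numbered 3 without GF ethanol 4, 4 without SPF ethanol 1 and 5 without SPF ethanol 2. Gpx2, a glutathione peroxidase, rose by 0.94 (adjusted p = 0.0019), and the classical targets Hmox1 (0.18, adjusted p = 0.2) and Nqo1 (0.21, adjusted p = 0.28) did not pass.

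Of 20 clock genes 4 rose and 3 fell (3 and 2 with the length trend removed), against shares of 11.6% and 10.3% over all genes. With so few calls nothing is drawn from the list, and its members are given as single genes. Dbp, a clock output factor, was at 111, 139 and 105 CPM in GF and 68.4, 39.7 and 44.9 CPM in SPF libraries (log2 fold change 1.21, SE 0.22, adjusted p = 0.0046), and the repressor gene Nr1d1 rose by 0.59 (adjusted p = 0.0052). Arntl, which encodes BMAL1, fell by 0.44 (adjusted p = 0.015, lost without any 1 of 3 libraries, up to 0.069), and Cry1 was at 18.7, 18.1 and 22 CPM in GF and 29.5, 31.8 and 26.3 CPM in SPF libraries (-0.58, SE 0.13, adjusted p = 0.0091). Clock, which encodes the partner of BMAL1, read 13.8, 11.1 and 51 CPM in GF and 68.7, 71 and 75.4 CPM in SPF libraries, with the GF libraries far apart (-1.50, SE 0.65, adjusted p = 0.12). The hour of sampling is not given in the labels and cannot be told apart from housing.

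Some calls lay side by side on a chromosome, and these regions were picked after their values were seen. In a stretch of chromosome 13 (GRCm38) around Gpr137b-ps, 13 of 16 genes tested were called (81.2%), 10 lower and 3 higher in GF. The genes tested there begin at 12181331 to 14063609. Over all genes tested 22.0% were called, 11.6% higher and 10.3% lower. Because the stretches were picked for their values, a larger share within them is no test of clustering. Gpr137b-ps (gene ID 664862, 12614065 on) was at 5.69, 5.81 and 6.59 CPM in GF and 27.2, 26 and 22.8 CPM in SPF libraries (log2 fold change -2.07, SE 0.12, adjusted p = 1.1e-05). Its parent gene Gpr137b, a lysosomal membrane protein gene that begins at 13357620, was at 35.2, 34.8 and 39.1 CPM in GF and 21.1, 17.7 and 17.9 CPM in SPF libraries (0.94, SE 0.09, adjusted p = 2.3e-04). The sum of the pair was 40.9, 40.6 and 45.7 CPM in GF and 48.2, 43.8 and 40.8 CPM in SPF libraries, which overlap. Around them Ero1lb, an oxidase of the endoplasmic reticulum, had a log2 fold change of -1.43 (adjusted p = 9.8e-05), the G protein subunit gene Gng4 -0.97, the lysosomal traffic regulator Lyst -0.72 and the basement membrane gene Nid1 -0.65. With MC903 these 4 genes had -1.49, -0.85, -0.66 and -0.37. Lyst did not pass without GF ethanol 4 or SPF ethanol 3, nor with the length trend removed (up to 0.091).

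In a stretch of chromosome 4 around Ccl27a, 11 of 22 genes were called (50%), 10 higher in GF. The genes tested there begin at 41712033 to 43032414. The share called over all genes tested was 22.0%, here and for the cluster below. This stretch holds near-identical copies of chemokine genes. Ccl27a, the skin-homing chemokine of keratinocytes, was at 10.3, 12.4 and 9.85 CPM in GF and 4.01, 4.91 and 4.33 CPM in SPF libraries (higher in GF, adjusted p = 7.5e-04). Ccl21b rose by 1.04 (adjusted p = 0.0025), and Ccl21a, its near copy, read 99.8, 99.8 and 70.8 CPM in GF and 54.5, 0.969 and 51.9 CPM in SPF libraries (1.33, adjusted p = 0.38). SPF ethanol 2 stood apart for Ccl21a. Reads of these copies may have been split, and Ccl27b (1.62, adjusted p = 0.01, and 0.058 without GF ethanol 4) stood at 0.549 CPM or less. Within the Hoxd cluster on chromosome 2, 3 of 5 genes were called, and the position genes Hoxd8 (0.63), Hoxd9 (0.77) and Hoxd10 (0.81) were higher in GF. Hoxd8 did not pass without GF ethanol 4, nor Hoxd10 without any 1 of 4 libraries (up to 0.16). Of genes altered between C57BL/6 substrains, Nnt was at 30.1 to 30.6 CPM in GF and 20.1 to 25.9 CPM in SPF libraries (0.37, adjusted p = 0.47), and the others tested were present in all 6 libraries, with Wdfy1 (-0.44, adjusted p = 0.0056) and Entpd4 (-0.34, adjusted p = 0.0068) lower in GF. Whether the colonies differed in genetic background was not tested.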

How the data were processed

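RNA from skin (RNeasy Fibrous Tissue kit) went into TruSeq libraries, read on a HiSeq4000, as the labels' protocols state. Tools named in the submitters' processing notes are HISAT2 2.1.0, StringTie 1.3.4d, Trimmomatic and bcl2fastq 2.20.0, with build mm10. The annotation and the strand setting are not stated there. The authors deposited estimated counts per gene, which were rounded, and FPKM values per gene, used here only to derive transcript length. edgeR 4.0.16 (R 4.3.3) fitted a quasi-likelihood model with TMM scaling to all 12 libraries, 4 groups of 3, after a filter on low counts (filterByExpr, minimum 10), leaving 16466 of 24532 genes. P-values were adjusted by Benjamini-Hochberg over all genes tested. The script was tested on simulated data. Alternatives used DESeq2 1.42.0, limma 3.58.1 (voom), other scalings and filters, removal of the length trend, the replicate number as a block, and omission of each library. Gene coordinates and promoters came from RefSeq (GRCm38.p6), which matched 24462 genes by ID.

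Named genes were the 12 highest and 12 lowest log2 fold changes among called genes without overlap and with a mean of at least 1 CPM in a group, predicted models left out, the 6 smallest p, up to 4 called members of each list with the largest change (6 where over 10 were called), its first 2 tested symbols, and all sex and substrain genes. Genes said to be picked later, the keratin Krt10 and the genes named within chromosomal stretches were chosen after their values were seen. Members and lists were chosen with earlier results of these data known. Intervals from replicates cover the spread between 3 libraries only. Some results are not reported here.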

Additional observations from a re-analysis of the deposited data

Results flagged for a closer look

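For 51 of the 172 genes named and tested, the difference between GF and SPF skin was not the same with MC903 as with ethanol, by edgeR's interaction term at an adjusted p under 0.05. Over all 16466 genes 2800 did so, 17.0%, and of the 3616 called with ethanol 840 did. With MC903 it was larger in the same direction for 17, and smaller or opposite for 34, of which 22 changed sign. Most of these genes were named for their ethanol difference, so a smaller one with MC903 comes in part from that choice. The values that follow are the log2 difference with MC903 less that with ethanol, so a negative value means that GF skin stood lower against SPF skin with MC903 than with ethanol. Each housing difference comes from 3 libraries a group, and no library is shared between the treatments. Whether the same mice gave both is not stated in the labels.

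In antigen presentation and interferon signalling the value was 0.71 for H2-DMa, 0.62 for B2m, 0.71 for Tap1, 0.45 for Tap2, 1.15 for Nlrc5 and 0.69 for Stat2. For H2-Q6 it was -9.52, a fitted value that depends on the prior count because the SPF ethanol libraries were at 0. T cell genes gave 1.10 for Cd3d, 1.05 for Cd3e and 0.44 for Thy1, and Il22ra2 gave 1.73. Sensors, cytokines and antimicrobial genes gave 2.01 for Pglyrp2, -0.47 for Tlr2, 1.17 for Chil1, -1.14 for Defb1, -0.73 for Il1f8, -1.42 for Tslp and -1.0 for C3.

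Keratinocyte genes gave -2.38 for Sprr2a3, -1.37 for Sprr2a1, -2.11 for Krt16, -2.16 for Krt6a, -2.48 for Krt6b, 1.16 for Krt10 and 0.68 for Mki67. Lipid genes gave 2.2 for Sptssb, 1.98 for Olah, -0.44 for Lss, 0.81 for Scd1 and 1.54 for Awat2. Genes of foreign compounds and oxidative stress gave -1.47 for Ugt1a6a, 0.61 for Ugt1a1, -0.71 for Tiparp, 0.65 for Ahr, -0.87 for Gpx2, -1.05 for Nqo1, -0.66 for Hmox1 and 1.40 for Aox3.

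Chaperone and stress genes gave -0.73 for Cryab, 0.41 for Hspa4l, -0.55 for Hspb8, -0.56 for Pdia4, -0.62 for Hsp90b1 and -0.87 for Atf5. The remaining genes gave 2.0 for Pyy, -0.34 for Aldoa, -0.72 for Cyr61, -0.91 for Col2a1, -1.39 for Tnni1, 0.64 for Hoxd9 and 0.31 for Entpd4.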

How the results depend on the processing

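Across the settings tried, 3616 genes called became 2183 with the length trend removed, where 899 were lower in GF. Leaving out 1 library gave 1475 (without GF ethanol 4) to 3093 (without GF ethanol 5) genes called, 768 to 1643 higher, 707 to 1450 lower and 162 to 338 called with at least a 2-fold change. Library totals, DESeq2 size factors, DESeq2, limma voom, no or a strict filter and the 6 ethanol libraries alone gave 3201 to 4354. Library totals moved the median of all genes by -0.05 on the log2 scale. Of the named genes called, 95 did not pass without GF ethanol 4, 39 to 60 without each other library and 68 with the length trend removed, 1 of which changed sign. Adamts2, a protease that trims procollagen, turned from -0.24 (adjusted p = 0.04) to 0.01 with the trend removed (adjusted p = 0.96), and its cause was not tested. Same-numbered ethanol and MC903 libraries had deviations from their group means correlated at -0.022 to 0.14, and the numbers were not taken as pairs. With 3 libraries a group this cannot settle whether same-numbered libraries came from the same mouse, which the labels do not state. With the number as a random replicate block in limma voom (consensus correlation 0.069) 4211 genes passed, as without the block. As a fixed replicate block in edgeR, added after seeing the data, it left 4 residual degrees of freedom and linked the housings only through number 1. That fit called 238 genes, 159 higher and 79 lower, 90 of them with at least a 2-fold change, and 196 of the named genes called did not pass. With 3 libraries a group, genes at few counts limit what can be called.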
